A study of Mus musculus with 12 samples.

Results

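The comparison described here set 3 libraries of Trem2 knockout macrophages given the solvent DMSO against 3 libraries of wild-type macrophages given the same solvent, across all genes. The libraries were chosen by their titles and make up 6 of the 12 libraries of the series, in which the other 6 libraries, 3 of each genotype, came from cells given 25 nM bafilomycin A1 for 22 h. The KO group carried a Trem2 knockout and the WT group did not. The labels used here give neither strain, sex or age nor the part of the gene that was deleted. All cells were bone-marrow-derived macrophages, grown from femur and tibia marrow for 7 days in M-CSF, frozen, thawed and kept in M-CSF with DMSO for 22 h. Each replicate of the knockout experiment was a pool of marrow from 3 mice, so p-values measure the spread between pools. RNA was read with a 3′ tag method (QuantSeq with molecular identifiers), and levels are given as CPM, counts scaled to a common library size after TMM adjustment. A CPM value of this method follows the number of tags and not the length of the gene.

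Trem2 is a surface receptor of macrophages, microglia and osteoclasts that binds lipids, lipoproteins and apolipoproteins. It has no signalling tail of its own and signals through the adaptor Tyrobp (DAP12), which recruits the kinase Syk when it is phosphorylated. M-CSF, the ligand of Csf1r, keeps bone-marrow-derived macrophages alive and lets them divide in culture, and Tyrobp also takes part in signalling downstream of Csf1r.

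The KO libraries held between 4407470 and 5170110 counts and the WT libraries between 4790760 and 6457650. Mitochondrial transcripts made up 5.74% to 7.36% of the counts of the KO libraries and 4.25% to 4.80% of those of the WT libraries. The 13 protein genes of the mitochondrion summed to 10940.5 to 12435 CPM in the KO libraries and 12487 to 13106 CPM in the WT libraries. The higher mitochondrial share was therefore not in these genes. The 10 most abundant genes of each library took 17.1% to 20.9% in the KO group and 13.2% to 15.2% in the WT group. The first principal component of the 6 libraries held 77.9% of the variance and separated the genotypes. The defining macrophage markers Adgre1, Csf1r, Cd68, Lyz2 and Mertk were present in all 6 libraries. The 11 macrophage markers listed summed to 7968, 8118 and 9361 CPM in the KO libraries and to 8043, 8500.2 and 8609 CPM in the WT libraries, given here and below from the lowest to the highest library. Markers of granulocytes did not keep this balance. All 20 listed summed to 440.1, 557 and 731 CPM in the KO libraries, against 171, 184 and 187 CPM in the WT libraries, and 9 of the 20 passed the filter on low counts. Markers of B cells, erythroid cells and megakaryocytes summed to at most 3.92 CPM in any library. T and NK cell markers summed to 6.24, 7.80 and 8.07 CPM in the KO libraries and to 2.94, 3.69 and 4.03 CPM in the WT libraries, those of fibroblasts and stroma to 12.1, 13.1 and 14.8 CPM in the KO libraries and to 6.16, 8.06 and 10.6 CPM in the WT libraries, and those of mast cells and basophils to 2.53, 4.56 and 8.83 CPM in the KO libraries and to 1.91, 2.42 and 2.51 CPM in the WT libraries. The B cell, T and NK cell, fibroblast and mast cell sums were higher in every KO library, an order that 19.7% of all tested genes shared. For mast cells and basophils the nearest values were 2.53 and 2.51 CPM. Erythroid and megakaryocyte sums overlapped. So did eosinophil sums, at 5.52 to 14 CPM in the KO and 6.37 to 8.50 CPM in the WT libraries. Progenitor sums also overlapped, at 5.92 to 10.3 CPM and 3.32 to 9.77 CPM. The part of these cell types in the results below was not tested. These libraries are bulk RNA, in which fewer cells of a type and less RNA per cell cannot be told apart.

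Of 12052 genes tested, 3649 (30.3%) differed between the genotypes at an adjusted p below 0.05 in edgeR's quasi-likelihood test, the threshold used throughout for calling a gene. In the KO libraries 1666 genes (13.8%) were higher and 1983 (16.5%) were lower. A change of more than 2-fold was seen in 906 of the called genes, 329 of them higher and 577 lower, so the larger changes leaned towards lower values in the KO cells. The median log2 fold change over all genes tested was -0.0073. All 3 KO libraries lay above all 3 WT libraries for 2372 genes (19.7%) and below them for 2679 genes (22.2%). Calls depended on abundance, since 16.0% of the genes under 5 CPM and 48.5% of those over 100 CPM were called, and 465 genes with under 10 counts in each KO library were tested only because other libraries carried them. Of these 465 genes, 174 were called lower. Likewise, 201 genes had under 10 counts in each WT library, and 65 of those were called higher.

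**Figure D1:**
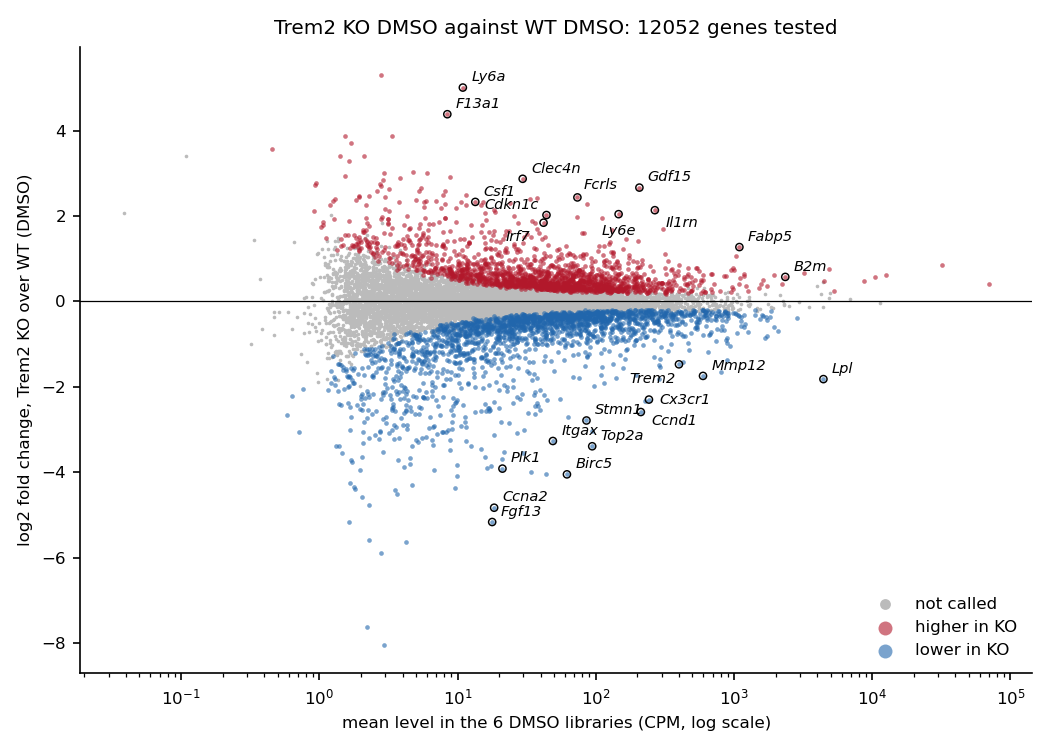
Log2 fold change of Trem2 KO DMSO over WT DMSO (vertical axis) against the mean level in the 6 libraries (horizontal axis, CPM, log scale) for the 12052 genes tested. Coloured points are the 1666 called genes higher and the 1983 called genes lower in the KO libraries, grey points were not called, and labels mark genes named in the text.

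Trem2 itself had 219, 199 and 217 CPM in the KO libraries, against 619, 569.7 and 575 CPM in the WT libraries. The 3 KO libraries lay below the 3 WT libraries, and its log2 fold change was -1.47 ± 0.080 (SE; adjusted p = 6.9e-12). Since the reads lie near the 3′ end and the deleted part is not known, the tags that remain say nothing on whether a functional transcript was made. Its relatives Trem1, Trem3, Treml1, Treml2 and Treml4 did not pass the filter on low counts.

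Trem2's partners changed little as a group. Of 25 tested adaptors, kinases and downstream signalling genes, 3 were higher and 5 lower in the KO libraries, shares near those of all genes, and their median log2 fold change was 0.039. The lower count was 3 without KO replicate 2, without WT replicate 1 or without WT replicate 2. Tyrobp had 1139, 994 and 1019 CPM in the KO libraries, against 1158, 1078 and 972 CPM in the WT libraries. The groups overlapped for this adaptor, and its log2 fold change of -0.025 ± 0.089 was not called (adjusted p = 0.86). Syk, the kinase that Tyrobp recruits, had 139, 140.3 and 145 CPM in the KO libraries, against 85.4, 86.6 and 94.4 CPM in the WT libraries. Its KO values stood above all WT values, with a log2 fold change of 0.67 ± 0.080 (adjusted p = 8.6e-07). The Ras activator Rasgrp3 and the PI3 kinase subunit Pik3cd fell, with log2 fold changes of -1.35 ± 0.18 and -0.78 ± 0.10, and the linker Lat2 did so by less (-0.32 ± 0.081).

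The colony-stimulating factor genes moved in both directions, 4 higher and 2 lower of 13 tested. Csf1, which encodes M-CSF, had 24.7, 29.0 and 13.9 CPM in the KO libraries, against 2.99, 3.54 and 6.53 CPM in the WT libraries. The KO libraries were all higher, and the log2 fold change was 2.33 ± 0.28 (adjusted p = 9.0e-07). Csf2rb, the beta subunit shared by the receptors for GM-CSF, IL-3 and IL-5, rose by 0.81 ± 0.071 on the log2 scale, and Csf2rb2, the mouse beta subunit specific for IL-3, rose by 0.78 ± 0.093, whereas Csf2ra, the subunit specific for GM-CSF, fell with a log2 fold change of -0.97 ± 0.10. Csf1r, the M-CSF receptor, had 590.0, 556 and 568 CPM in the KO libraries, against 702, 654 and 657 CPM in the WT libraries. Its log2 fold change of -0.23 ± 0.085 was called (adjusted p = 0.042), and the call was lost when any 1 of the 6 libraries was left out, which makes the lower count of this list 1.

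Genes known as targets or feedback inhibitors of ERK, the kinase downstream of Ras and growth factor receptors, were lower as a group. Of 22 listed, 17 were tested, 14 were lower and 2 higher, with a median log2 fold change of -0.99 against -0.0073 over all genes. Ccnd1, the cyclin D1 gene through which growth factors drive entry into the cell cycle, had 62.1, 47.3 and 72.2 CPM in the KO libraries, against 383, 388 and 319 CPM in the WT libraries. Its highest KO value lay far below its lowest WT value, with a log2 fold change of -2.59 ± 0.12 (adjusted p = 6.7e-13). The ERK phosphatase Dusp6 had 16.2, 10.5 and 18.7 CPM in the KO libraries, against 57.4, 52.1 and 52.2 CPM in the WT libraries. The ETS factor Etv5 had 10.9, 8.97 and 14.4 CPM in the KO libraries, against 64.7, 62.0 and 58.3 CPM in the WT libraries, and the inhibitor Spred1 had 87.6, 92.2 and 85.4 CPM in the KO libraries, against 222, 229 and 184 CPM in the WT libraries. None of these 3 overlapped between the genotypes, and their log2 fold changes were -1.85 ± 0.15, -2.45 ± 0.15 and -1.26 ± 0.086. Emp1, a membrane protein of the same list, and the early gene Ier3 went the other way, at 0.51 ± 0.13 and 0.66 ± 0.13 on the log2 scale. Genes of AKT, FOXO and growth control were 3 higher and 3 lower of 18 tested (median -0.0093); the insulin receptor substrate Irs2 was higher (1.21 ± 0.14), and the cyclin Ccng2 and the transcription factors Klf2 and Bcl6 were lower (-0.54 ± 0.13, -0.56 ± 0.16 and -0.28 ± 0.10). Klf2 lost its call without KO replicate 2 and Bcl6 without any library but WT replicate 1, and without KO replicate 2 the counts were 5 higher and 1 lower.

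Most tested genes of DNA replication, repair and mitosis were lower in the KO libraries. They are taken here in the order in which a dividing cell uses them. Many of these genes had few tags in the KO cells, so each list's count and median over tested members stand beside those over its more abundant members, which averaged at least 10 CPM across the 12 libraries. That average takes in both DMSO groups, so a gene can reach it through the group where it is high. Counts over the more abundant members are therefore not separate support for the direction of change. At that level 17.1% of all genes were higher and 18.7% lower in the KO libraries.

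Replication starts when the MCM helicase is loaded on origins. All 20 genes listed for licensing and origin firing were tested, and 16 were lower and 0 higher (median -1.34 on the log2 scale). Of the 20, 3 had under 10 counts in each KO library, and of the 12 more abundant members 9 were lower (median -1.05). Mcm5, a subunit of that helicase, had 9.93, 11.1 and 14.4 CPM in the KO libraries, against 70.0, 68.2 and 55.0 CPM in the WT libraries. Every KO library lay below every WT library (log2 fold change -2.45 ± 0.14, adjusted p = 1.9e-11). Mcm7 and Mcm4 showed the same order with log2 fold changes of -2.30 ± 0.12 and -1.39 ± 0.11, and Mcm6 had -1.30 ± 0.10. Cdt1, which loads the helicase, was not called (-0.18 ± 0.083, adjusted p = 0.12).

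At the fork, 15 of 24 genes tested were lower and 1 higher (median -0.80), and 8 of the 13 more abundant members were lower (median -0.76). Of the 24, 1 had under 10 counts in each KO library. Pcna, the sliding clamp of the DNA polymerases, had 263, 239 and 273 CPM in the KO libraries, against 482, 445 and 429 CPM in the WT libraries. It fell by less than the helicase genes, with a log2 fold change of -0.81 ± 0.079 (adjusted p = 4.5e-08). Lig1, the ligase that joins Okazaki fragments, had 33.7, 37.8 and 46.3 CPM in the KO libraries, against 152, 157 and 158 CPM in the WT libraries, with no overlap and a log2 fold change of -1.99 ± 0.10. The catalytic polymerase subunit Pola1 and the fork protection factor Tipin were also lower, with log2 fold changes of -1.33 ± 0.12 and -1.43 ± 0.13, and the checkpoint adaptor Clspn had -3.26 ± 0.25. The gene that was higher, the polymerase subunit Pold3 (0.39 ± 0.14), lost its call when any library but WT replicate 3 was left out.

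Enzymes that make deoxynucleotides followed. Of 12 tested, 8 were lower and none was higher, with a median log2 fold change of -1.42; 4 of 7 more abundant members were lower (median -0.56). Rrm2, the subunit of ribonucleotide reductase whose level follows S phase, had 2.31, 1.72 and 2.08 CPM in the KO libraries, against 34.8, 31.2 and 26.6 CPM in the WT libraries. The WT values were all many times the KO values, and the log2 fold change was -3.91 ± 0.23 (adjusted p = 2.7e-11). Thymidine kinase Tk1 had -3.39 ± 0.24, thymidylate synthase Tyms -1.83 ± 0.24 and the dUTPase Dut -2.09 ± 0.17. Samhd1, which breaks deoxynucleotides down, had 234, 213 and 246 CPM in the KO libraries, against 249, 240.0 and 279.8 CPM in the WT libraries, and was not called (-0.15 ± 0.087, adjusted p = 0.21).

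Chromatin factors of S phase were lower in 12 of 13 cases (median -1.07) and in 10 of 11 more abundant members (median -1.04), among them the hemimethylated DNA reader Uhrf1 (-3.85 ± 0.24) and the histone methyltransferase Ezh2 (-1.39 ± 0.10). H2az1, a histone variant gene, was abundant in both genotypes, with 499, 495 and 497 CPM in the KO libraries, against 871, 838 and 814 CPM in the WT libraries. Its KO values were all lower, by a log2 fold change of -0.76 ± 0.071. In homologous recombination and Fanconi repair, 12 of 14 tested genes were lower, but 6 of the 14 had under 10 counts in each KO library. The median log2 fold change of these genes was -1.84, and the 1 more abundant member was lower too. Pclaf, a PCNA-binding factor outside the lists, was among the 15 largest decreases, with 5.54, 4.01 and 5.56 CPM in the KO libraries, against 85.2, 83.6 and 76.8 CPM in the WT libraries and a log2 fold change of -4.03 ± 0.14.

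Mitotic genes came next. Of 22 kinases, cyclins and checkpoint genes tested, 21 were lower and none higher (median -2.48), but 8 of the 22 had under 10 counts in each KO library. Of the 9 more abundant members 8 were lower (median -1.38). Cdk1, the kinase that drives entry into mitosis, had 12.9, 9.35 and 14.1 CPM in the KO libraries, against 68.8, 65.4 and 53.7 CPM in the WT libraries. The WT libraries were all above the KO libraries (log2 fold change -2.37 ± 0.15, adjusted p = 3.8e-11). Its partner cyclins fell further, Ccna2 with 1.62, 1.53 and 0.463 CPM in the KO libraries, against 39.5, 38.2 and 29.1 CPM in the WT libraries and Ccnb1 with 2.08, 1.53 and 3.47 CPM in the KO libraries, against 35.2, 23.6 and 29.7 CPM in the WT libraries. The log2 fold changes of the cyclins were -4.83 ± 0.31 and -3.65 ± 0.27, and that of the mitotic kinase Plk1 was -3.92 ± 0.25, or -4.73 without KO replicate 3.

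Among kinetochore and centromere genes, 23 of 25 were lower (median -2.32), but 7 of the 25 had under 10 counts in each KO library. Of the 9 more abundant members 8 were lower (median -1.06). Spc25, a subunit of the NDC80 complex that ties kinetochores to microtubules, had 11.3, 7.63 and 13.2 CPM in the KO libraries, against 48.0, 48.0 and 46.6 CPM in the WT libraries. The microtubule motor Cenpe and the large kinetochore protein Cenpf fell to log2 fold changes of -2.49 ± 0.23 and -2.82 ± 0.23, whereas Zwint, a kinetochore linker, was not called (-0.21 ± 0.10, adjusted p = 0.11).

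All 26 tested genes of the spindle, its motors and cytokinesis were lower, of 28 listed, and 10 of them had under 10 counts in each KO library; all 10 more abundant members were lower. The median was -2.72 over those tested and -1.53 over the more abundant ones. Prc1, which bundles the midzone of the spindle, had 4.16, 2.29 and 2.78 CPM in the KO libraries, against 38.01, 35.4 and 43.8 CPM in the WT libraries, and Nusap1, a spindle-associated protein, had 3.47, 1.72 and 2.31 CPM in the KO libraries, against 25.4, 27.1 and 28.9 CPM in the WT libraries. Neither gene overlapped between the genotypes (log2 fold changes -3.68 ± 0.22 and -3.46 ± 0.22). Stmn1, which destabilises microtubules, had 21.7, 17.6 and 26.2 CPM in the KO libraries, against 147, 144 and 158 CPM in the WT libraries (-2.79 ± 0.11). The tubulins Tubb5 and Tuba1b, which resting cells also use, fell by less (-1.06 ± 0.082 and -0.93 ± 0.084).

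Of 20 condensin, cohesin and other chromosome genes tested, 16 were lower and 1 higher (median -2.32), but 4 of the 20 had under 10 counts in each KO library. Of the 11 more abundant members 8 were lower and 1 higher, with a median of -0.43. Top2a, the topoisomerase that separates sister DNA, had 19.9, 14.5 and 15.0 CPM in the KO libraries, against 158, 172 and 186 CPM in the WT libraries. Birc5, the survivin of the chromosome passenger complex, had 7.85, 5.54 and 7.87 CPM in the KO libraries, against 133, 108 and 109 CPM in the WT libraries. Mki67, whose protein Ki-67 is used to count cycling cells, had 3.47, 3.24 and 3.70 CPM in the KO libraries, against 33.5, 31.0 and 55.0 CPM in the WT libraries. All 3 were lower in every KO library, at -3.39 ± 0.12, -4.05 ± 0.16 and -3.53 ± 0.24 on the log2 scale. Of the cohesin subunits, Rad21 was lower (-0.27 ± 0.080), a call lost without KO replicate 3 or WT replicate 2, and Smc1a was not called (-0.06 ± 0.10, adjusted p = 0.69), and the condensin II subunit Ncapg2 was higher (1.14 ± 0.12, adjusted p = 8.4e-08).

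Of the factors that switch these genes on and off, 11 of 19 were lower and none higher (median -0.55), and 1 was higher without KO replicate 3. Of the 19, 4 had under 10 counts in each KO library. Of the 13 more abundant factors 6 were lower (median -0.20). E2f1 had 15.2, 18.3 and 15.5 CPM in the KO libraries, against 40.6, 34.5 and 33.1 CPM in the WT libraries, a log2 fold change of -1.12 ± 0.14. Foxm1 and Mybl2, which act on the G2 and M phase genes, were near the detection limit in the KO cells, Foxm1 with 1.16, 0.382 and 0 CPM in the KO libraries, against 7.05, 6.40 and 7.27 CPM in the WT libraries and Mybl2 with 0.462, 0 and 0.463 CPM in the KO libraries, against 7.69, 7.41 and 5.04 CPM in the WT libraries. The retinoblastoma gene Rb1 was not called (0.036 ± 0.10, adjusted p = 0.83), nor was the MuvB subunit Lin9 (-0.077 ± 0.11, adjusted p = 0.64).

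Promoters are shown for genes of the steps just described, to set out the letters that cell cycle promoters are known for. These are the E2F site of S phase genes, searched as TTTCCCGC, TTTGGCGC, TTTCGCGC or TTTGCCGC, the CHR element of G2 and M phase genes, searched as TTTGAA or TTTAAA, and the CCAAT box, searched as CCAAT, each on both strands. The windows run from 250 bases before to 50 bases after the RefSeq start of the gene, in GRCm38.p6, and capitals mark every match. They are Cdk1 at chr10:69352863-69353162 on the minus strand, Top2a at chr11:99024140-99024439 on the minus strand and Mcm5 at chr8:75109259-75109558 on the plus strand.
Cdk1: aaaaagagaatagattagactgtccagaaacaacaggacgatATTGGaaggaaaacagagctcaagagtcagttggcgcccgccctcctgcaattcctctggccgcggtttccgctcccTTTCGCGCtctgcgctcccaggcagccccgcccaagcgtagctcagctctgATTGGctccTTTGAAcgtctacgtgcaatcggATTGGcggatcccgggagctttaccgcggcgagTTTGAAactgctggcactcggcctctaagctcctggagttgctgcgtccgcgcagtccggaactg
Top2a: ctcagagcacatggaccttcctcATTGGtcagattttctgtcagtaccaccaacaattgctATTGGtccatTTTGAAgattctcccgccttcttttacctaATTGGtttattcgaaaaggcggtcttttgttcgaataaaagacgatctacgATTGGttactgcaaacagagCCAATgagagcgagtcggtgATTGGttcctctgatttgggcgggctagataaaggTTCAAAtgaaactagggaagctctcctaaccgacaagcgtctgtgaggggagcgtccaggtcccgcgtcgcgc
Mcm5: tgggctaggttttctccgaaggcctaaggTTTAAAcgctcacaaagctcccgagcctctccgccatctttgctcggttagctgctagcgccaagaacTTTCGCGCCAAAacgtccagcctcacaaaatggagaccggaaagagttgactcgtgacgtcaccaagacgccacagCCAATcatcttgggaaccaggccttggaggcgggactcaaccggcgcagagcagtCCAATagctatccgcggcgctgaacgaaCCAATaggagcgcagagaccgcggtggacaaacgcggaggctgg
The Cdk1 window held 2 CHR matches, 3 CCAAT boxes and 1 E2F match, that of Top2a held 2 CHR matches and 6 CCAAT boxes, and that of Mcm5 held 2 E2F matches that overlap each other, 3 CCAAT boxes and 1 CHR match. Genes with more than 1 listed window were left out of all shares here and below. Among the 6970 tested genes with exactly 1 listed window, 19.2% held a CHR match, 40.1% a CCAAT box and 4.65% an E2F match. Of the 66 mitosis genes lower in the KO libraries that had a window, 68.2% held a CHR match, 66.7% a CCAAT box and 12.1% an E2F match. Of the 36 replication genes lower in the KO libraries with a window, 33.3% held an E2F match, 69.4% a CCAAT box and 30.6% a CHR match. Over all 1184 genes lower in the KO libraries with a window, CHR matches were in 24.2% and E2F matches in 6.0%. The lists hold known mitosis and replication genes, and shares over all their listed members were not computed. The shares above therefore cannot tell membership of a list from a change in the KO libraries. A match is a run of letters and was not tested as a binding site.

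**Figure D2:**
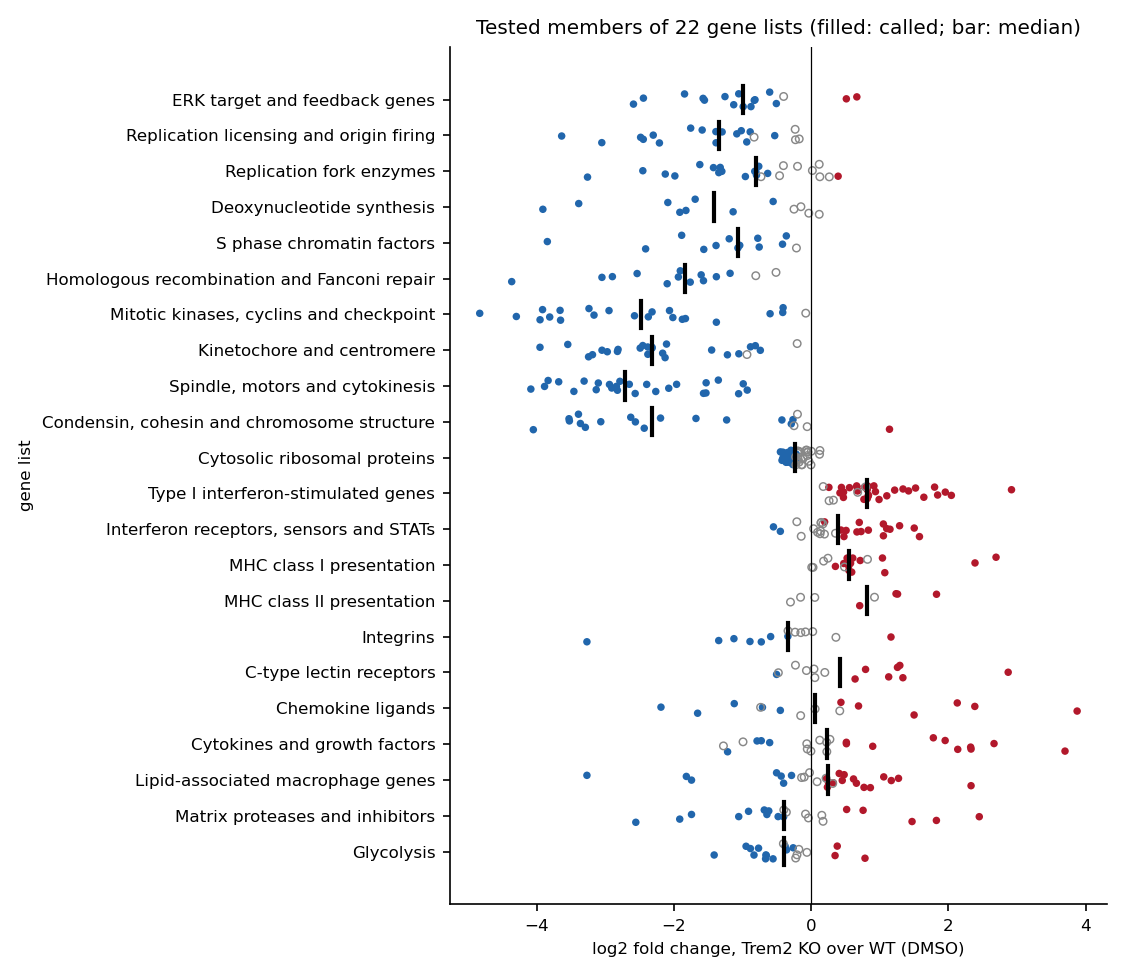
Log2 fold change of Trem2 KO DMSO over WT DMSO (horizontal axis) for every tested member of 22 gene lists (vertical axis). Filled points were called at an adjusted p below 0.05, open points were not, and the bar marks each list's median. The medians of the mitosis lists sit left of 0 and that of the type I interferon list right of 0.

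The cyclins and kinases of G1 were lower in 8 of 12 cases and higher in none (median -0.84), and 6 of 9 more abundant members were lower (median -0.73). Besides Ccnd1, the E cyclins Ccne1 and Ccne2 had log2 fold changes of -2.48 ± 0.32 and -2.71 ± 0.24, and Cdk6, a partner of the D cyclins, had 250.2, 284 and 247 CPM in the KO libraries, against 437, 448 and 404 CPM in the WT libraries (-0.72 ± 0.079). The kinase genes Cdk4 (-0.074 ± 0.11) and Cdk2 (-0.13 ± 0.22) were not called. The genes for CDK inhibitors were 1 higher and 5 lower of 7, and 1 higher and 2 lower of the 4 more abundant. Of the 7, 2 had under 10 counts in each KO library. Cdkn1c, the p57 inhibitor, had 61.4, 79.8 and 70.6 CPM in the KO libraries, against 17.5, 15.8 and 18.8 CPM in the WT libraries. The lowest KO value was above the highest WT value, with a log2 fold change of 2.02 ± 0.12 (adjusted p = 3.8e-11). Cdkn1a, the p21 gene, had 572, 615 and 584 CPM in the KO libraries, against 717, 694 and 624 CPM in the WT libraries, a log2 fold change of -0.20 ± 0.075, and lost its call when any library but WT replicate 3 was left out. The lower count of the list was 3 without KO replicate 2 or 3 and without WT replicate 1 or 2. The p18 gene Cdkn2c fell (-1.04 ± 0.24), as did the p19 gene Cdkn2d (-1.43 ± 0.28). Cdkn1b, the p27 gene, had 42.0, 40.1 and 40.5 CPM in the KO libraries, against 39.7, 43.1 and 40.1 CPM in the WT libraries, and was not called (adjusted p = 0.98). Known targets of p53 were 3 higher and 2 lower of 20 (median 0.14), or 0 lower without KO replicate 3 or WT replicate 2 and 1 lower without KO replicate 1, KO replicate 2 or WT replicate 1. Cdkn1a is one of those that fell, and Gadd45a, a growth arrest gene, was higher, with 39.5, 50.4 and 39.1 CPM in the KO libraries, against 18.4, 14.3 and 17.7 CPM in the WT libraries (1.37 ± 0.15).

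Cytosolic ribosomal protein genes shifted by small amounts. Of 50 tested, 27 were lower and none was higher, with a median log2 fold change of -0.23. All 50 averaged at least 10 CPM over the 12 libraries, a level at which 18.7% of all genes were lower. Of the 1855 genes over 100 CPM in the DMSO libraries, 503 were lower and 396 higher. Rps23 had 1432, 1370.3 and 1629 CPM in the KO libraries, against 2210.3, 1920.1 and 1826 CPM in the WT libraries, and Rps9 had 929, 879 and 1035 CPM in the KO libraries, against 1421, 1255 and 1205 CPM in the WT libraries. Both had lower KO values in every library, at -0.43 ± 0.086 and -0.45 ± 0.082 on the log2 scale. Without KO replicate 2 the count was 15, and without WT replicate 1 it was 14. Of 25 genes of ribosome biogenesis and the nucleolus, 1 was higher and 5 lower; with 1 library left out 0 to 2 were higher, and 3 were lower without KO replicate 1. The nucleolar chaperone Npm1 and the pseudouridine synthase Dkc1 fell with log2 fold changes of -0.58 ± 0.073 and -0.88 ± 0.11, while Ncl, the nucleolin gene, was not called (-0.031 ± 0.087, adjusted p = 0.83).

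Genes of the type I interferon response were higher. This response is set in motion when interferon alpha or beta binds its receptor and STAT and IRF factors switch on genes that restrict viruses. Of 37 tested genes of 38 listed, 32 were higher and none was lower, and their median log2 fold change was 0.82; 25 of the 28 more abundant members were higher. Rsad2, the antiviral enzyme viperin, had 153, 211 and 169 CPM in the KO libraries, against 56.4, 73.1 and 80.7 CPM in the WT libraries. Irf7, which amplifies interferon production, had 58.4, 65.5 and 72.4 CPM in the KO libraries, against 20.3, 18.4 and 16.5 CPM in the WT libraries. Ifi44 had 14.8, 16.8 and 15.0 CPM in the KO libraries, against 3.42, 1.68 and 1.34 CPM in the WT libraries. The KO libraries were above the WT libraries for each of the 3, with log2 fold changes of 1.34 ± 0.16, 1.84 ± 0.21 and 2.92 ± 0.32 (adjusted p = 6.1e-07, 4.8e-07 and 2.4e-07). The ubiquitin-like modifier Isg15, not among the genes the naming rule picked, had 31.6, 49.4 and 46.5 CPM in the KO libraries, against 21.8, 25.4 and 25.2 CPM in the WT libraries (0.82 ± 0.16).

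The ISRE is the element that these interferon factors bind, searched here on both strands as TTTC and TTTC with any 2 bases between them. Of the 25 listed interferon genes with a window, 52% held a match, as did 50% of the 22 that were higher, against 3.46% of all 6970 and 6.81% of the 999 genes higher in the KO libraries. CHR matches were in 31.8% of those 22 and E2F matches in 0. The Ifi44 window held no ISRE match. The promoter shown is that of Rsad2, at chr12:26456403-26456702 on the minus strand of GRCm38.p6, picked after its values were seen as the interferon gene with the smallest p whose window held a match, which is in capitals.
Rsad2: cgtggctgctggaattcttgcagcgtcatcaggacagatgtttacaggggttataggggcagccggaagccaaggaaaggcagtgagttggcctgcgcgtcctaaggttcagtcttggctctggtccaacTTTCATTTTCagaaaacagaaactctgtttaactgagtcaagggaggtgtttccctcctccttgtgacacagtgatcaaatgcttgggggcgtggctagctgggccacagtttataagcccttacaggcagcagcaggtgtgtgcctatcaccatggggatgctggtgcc

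Sensors and signal carriers of the same response were higher in 15 of 28 cases and lower in 2. The endosomal RNA receptor Tlr7 had 44.4, 46.2 and 53.9 CPM in the KO libraries, against 25.0, 24.1 and 20.9 CPM in the WT libraries. It was higher in every KO library (1.05 ± 0.12). The DNA-binding Ifi20x genes Ifi209 and Ifi203 had 1.58 ± 0.16 and 0.83 ± 0.094; they are near-copies of each other, so reads may be split between them. Sting1, the adaptor of the DNA sensor cGAS, was lower, with 21.9, 21.6 and 25.0 CPM in the KO libraries, against 35.0, 35.4 and 30.1 CPM in the WT libraries (-0.55 ± 0.13), and so was the interferon-gamma receptor Ifngr1 (-0.45 ± 0.10). The GTPases that interferon gamma is known for were higher in 9 of 17 cases and lower in none. Ifi47 had 33.5, 36.8 and 45.1 CPM in the KO libraries, against 18.6, 20.9 and 18.7 CPM in the WT libraries, a log2 fold change of 0.99 ± 0.15, and Irgm2 had 1.02 ± 0.18. Irf1, which interferon gamma induces, was not called (-0.11 ± 0.12, adjusted p = 0.53).

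Antigen presentation genes rose with them. Class I presentation had 13 higher of 19 tested and none lower (median 0.55). Of the 19, 1 had under 10 counts in each WT library, and 10 of the 14 more abundant members were higher. B2m, the light chain of class I molecules, had 2655, 3002 and 2771 CPM in the KO libraries, against 1977, 1882 and 1808 CPM in the WT libraries. The heavy chain gene H2-K1 had 1194, 1369.7 and 1352 CPM in the KO libraries, against 905, 943 and 831 CPM in the WT libraries. H2-D1, another heavy chain gene, had 1367, 1488 and 1429.7 CPM in the KO libraries, against 967, 965 and 886 CPM in the WT libraries. No library of one genotype entered the range of the other for these genes, and the log2 fold changes were 0.57 ± 0.074, 0.55 ± 0.075 and 0.60 ± 0.069. The nonclassical gene H2-Q7 had a larger change (2.39 ± 0.22), with reads that its near-copies may share. In the class II pathway 4 of 8 tested genes were higher and none was lower. H2-Eb1, a class II beta chain, had 46.4, 41.0 and 40.7 CPM in the KO libraries, against 11.96, 11.8 and 12.3 CPM in the WT libraries. H2-Aa and H2-Ab1 had log2 fold changes of 1.24 ± 0.15 and 1.26 ± 0.17, with no overlap between the genotypes. The transactivator Ciita was low, with 4.62, 2.86 and 2.08 CPM in the KO libraries, against 1.71, 1.18 and 2.08 CPM in the WT libraries, and was not called (adjusted p = 0.12).

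The Ly6 genes, which encode GPI-anchored surface proteins and are interferon targets in several mouse leukocytes, held the largest increase among the genes that met the naming rule. Ly6a, or Sca-1, had 19.6, 15.1 and 28.9 CPM in the KO libraries, against 0.641, 0.842 and 0.445 CPM in the WT libraries. The log2 fold change was 5.01 ± 0.37 (adjusted p = 7.7e-10). With under 10 counts in each WT library, Ly6a was tested only because other libraries carried it, so the size of its increase is uncertain. Ly6e had 219, 228 and 259 CPM in the KO libraries, against 63.0, 55.9 and 53.1 CPM in the WT libraries (2.04 ± 0.16), and Ly6c2, a marker of monocytes, had 13.9, 12.6 and 15.3 CPM in the KO libraries, against 2.35, 2.36 and 2.23 CPM in the WT libraries (2.58 ± 0.28). Of the other Ly6 genes listed, 6 stayed under the count filter.

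**Figure D3:**
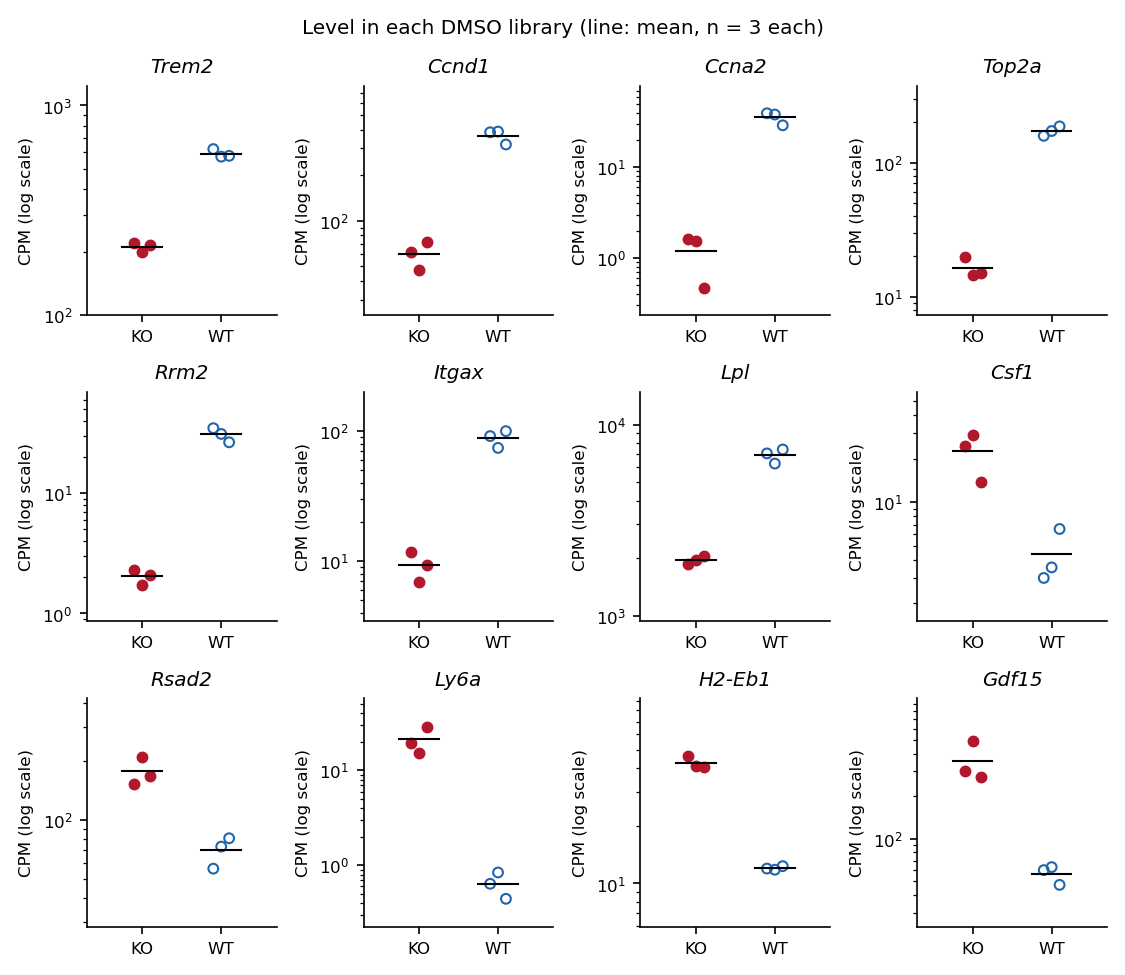
Level of 12 genes in each Trem2 KO DMSO library (left, filled) and each WT DMSO library (right, open), in CPM on a log scale. Each point is 1 library and the line marks the group mean (n = 3 each). The groups do not overlap for any of the 12 genes.

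Surface receptors changed in both directions, by family. Integrins were lower in 7 of 14 cases and higher in 1. Itgax, the CD11c gene of dendritic cells and lipid-laden macrophages, had 11.8, 6.87 and 9.26 CPM in the KO libraries, against 91.6, 74.3 and 100 CPM in the WT libraries. Itgam, the CD11b gene, had 186, 136 and 171 CPM in the KO libraries, against 441, 398 and 416 CPM in the WT libraries. Both fell in every KO library (-3.27 ± 0.20 and -1.35 ± 0.11), and Itga6 and Itgav did so too (-1.13 ± 0.11 and -0.89 ± 0.083). Itgb3, the partner of Itgav in the vitronectin receptor, was higher, with 9.24, 7.83 and 7.41 CPM in the KO libraries, against 3.63, 3.20 and 4.01 CPM in the WT libraries (1.16 ± 0.21). Itgb1, shared by many integrins, was not called (-0.15 ± 0.067, adjusted p = 0.092).

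C-type lectins were higher in 7 of 14 cases and lower in 1, a lower count that became 3 without KO replicate 3, with library size as the only scaling, without the filter, from the 6 DMSO libraries alone and with a replicate term, and 2 by limma-voom. Clec4n, the dectin-2 gene for fungal mannans, had 75.1, 47.7 and 33.1 CPM in the KO libraries, against 9.39, 6.57 and 5.79 CPM in the WT libraries. Mrc1, the mannose receptor, had 166, 178 and 145 CPM in the KO libraries, against 82.2, 68.7 and 51.3 CPM in the WT libraries. The KO values of both exceeded all WT values, at 2.87 ± 0.23 and 1.29 ± 0.14 on the log2 scale, and Clec4a1 and Clec4d rose by 1.13 ± 0.11 and 0.79 ± 0.077. Clec7a, the dectin-1 gene for beta-glucans, fell, with 203, 179.8 and 192 CPM in the KO libraries, against 290.2, 252 and 273 CPM in the WT libraries (-0.51 ± 0.084). Of 7 Fc receptor genes 4 were higher and 0 lower, or 1 lower without KO replicate 1 or WT replicate 3. The inhibitory Fcgr2b and the Fc receptor-like gene Fcrls rose, Fcgr2b with 27.3, 22.0 and 19.2 CPM in the KO libraries, against 10.2, 7.41 and 9.05 CPM in the WT libraries and Fcrls with 127, 88.0 and 157 CPM in the KO libraries, against 25.6, 25.3 and 18.4 CPM in the WT libraries (1.36 ± 0.18 and 2.43 ± 0.19), and the high-affinity IgG receptor Fcgr1 had 0.56 ± 0.13.

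Scavenger and efferocytosis receptors and their ligands were 6 higher and 6 lower of 18 tested. Cd36, which takes up oxidised lipoproteins and fatty acids, had 1160.3, 1177 and 1402 CPM in the KO libraries, against 2366, 2138 and 2072 CPM in the WT libraries. Msr1, scavenger receptor A, had 140.2, 128 and 106 CPM in the KO libraries, against 265, 234 and 261 CPM in the WT libraries. These receptors were lower in all KO libraries (-0.81 ± 0.11 and -1.02 ± 0.10), as was the lipoprotein receptor Lrp1 (-0.76 ± 0.12). Mertk, the receptor through which macrophages take up dying cells, had 198, 168 and 199 CPM in the KO libraries, against 86.0, 103 and 106 CPM in the WT libraries, and its bridging ligand Gas6 had 152, 152 and 128 CPM in the KO libraries, against 69.0, 67.7 and 54.6 CPM in the WT libraries. Both were higher in every KO library (0.93 ± 0.10 and 1.18 ± 0.11). Of the Toll-like and other pattern receptors, 7 of 21 were higher and 2 lower, or 1 lower without KO replicate 1 or without WT replicate 3. In this list 2 members had under 10 counts in each WT library, and of the 17 more abundant members 5 were higher and 2 lower. Without the filter on low counts 4 were higher. Tlr2, which senses bacterial lipoproteins, had 97.0, 72.1 and 78.9 CPM in the KO libraries, against 54.2, 55.6 and 54.1 CPM in the WT libraries (0.59 ± 0.14). The lipopolysaccharide co-receptor Cd14 was not called (-0.011 ± 0.11, adjusted p = 0.96). The inhibitory and paired receptors were higher in 8 and lower in 2 of 20, or lower in 1 without KO replicate 1. Among them 2 had under 10 counts in each WT library, and of the 14 more abundant members 7 were higher and 2 lower. Cd274, the PD-L1 gene, had 24.0, 31.5 and 25.2 CPM in the KO libraries, against 8.54, 10.9 and 8.01 CPM in the WT libraries (1.56 ± 0.16), and Vsir, the VISTA gene, had 213, 196 and 237 CPM in the KO libraries, against 383, 323 and 354 CPM in the WT libraries (-0.72 ± 0.095). Cd300lf, a lipid-binding inhibitory receptor outside the list, was among the 15 largest increases, with 27.5, 33.4 and 15.3 CPM in the KO libraries, against 4.27, 5.73 and 5.04 CPM in the WT libraries (2.34 ± 0.24).

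Chemotactic receptors held 7 higher and 4 lower of 15 (median 0.55), but 1 of the 15 had under 10 counts in each WT library. The 12 more abundant members were 5 higher and 4 lower (median 0.15). Cx3cr1, the fractalkine receptor, had 85.2, 52.3 and 109.7 CPM in the KO libraries, against 406, 405 and 397 CPM in the WT libraries. It was lower throughout the KO libraries (-2.30 ± 0.17). The chemerin receptor Cmklr1 and the nucleotide-sugar receptor P2ry14 were higher (1.16 ± 0.16 and 1.21 ± 0.20). The formyl peptide receptors Fpr1 and Fpr2, which sense bacterial peptides and are counted with the pattern receptors above, were low but higher. Fpr1 had a log2 fold change of 2.74 ± 0.48, and Fpr2 had 9.01, 4.96 and 6.94 CPM in the KO libraries, against 1.49, 1.85 and 1.78 CPM in the WT libraries (1.99 ± 0.39). Ccr2, the monocyte receptor for Ccl2, was not called (0.069 ± 0.17, adjusted p = 0.8).

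Chemokine genes divided likewise, 6 higher and 5 lower of 15 tested. Among them 2 had under 10 counts in each WT library and 1 in each KO library. Of the 9 more abundant members 4 were higher and 3 lower. Ccl5 had 25.9, 38.9 and 24.8 CPM in the KO libraries, against 7.05, 8.09 and 5.64 CPM in the WT libraries, and Ccl3 had 42.3, 56.1 and 35.2 CPM in the KO libraries, against 17.7, 15.8 and 14.4 CPM in the WT libraries. Both inflammatory chemokines were higher in all KO libraries (2.13 ± 0.18 and 1.499 ± 0.15). Cxcl14 had 17.8, 14.1 and 14.1 CPM in the KO libraries, against 65.3, 63.5 and 80.1 CPM in the WT libraries, and the CC chemokines Ccl6 and Ccl9 had log2 fold changes of -0.71 ± 0.15 and -0.45 ± 0.11; all 3 were lower. Among cytokines 10 were higher and 4 lower of 23. Of the 23, 2 had under 10 counts in each KO library and 1 in each WT library. The 15 more abundant members were 7 higher and 3 lower. Gdf15, a stress-induced cytokine of the TGF-beta family, had 299.8, 495 and 276 CPM in the KO libraries, against 60.0, 63.0 and 47.2 CPM in the WT libraries. Il1rn, the interleukin-1 receptor antagonist, had 384, 533 and 389.8 CPM in the KO libraries, against 103, 96.4 and 99.0 CPM in the WT libraries. Their KO values were all several times the WT values (2.66 ± 0.18 and 2.13 ± 0.13), and the gp130 cytokine Osm rose too (1.78 ± 0.20). Igf1, a growth factor, had 1007, 850.1 and 946 CPM in the KO libraries, against 1497, 1441 and 1329 CPM in the WT libraries, and Pdgfb had 71.4, 63.0 and 63.7 CPM in the KO libraries, against 163, 148 and 150.3 CPM in the WT libraries; both were lower (-0.61 ± 0.078 and -1.22 ± 0.10). Il1b, looked at after its values were seen, had 42.7, 3.82 and 6.94 CPM in the KO libraries, against 4.48, 2.86 and 3.26 CPM in the WT libraries. A single KO library, replicate 1, was far above the other 5, and without it the log2 fold change of 2.32 ± 0.58 was 0.62 and not called. The same library held 39 counts of Serpinb2 and 14 of Il1a where no other DMSO library passed 1 count of either.

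Markers of alternative activation, the state induced by interleukin-4, were higher in 8 of 13 tested genes and lower in 1, but 10 of the 23 listed were not tested, Arg1 and Retnla among them, and 3 of those tested had under 10 counts in each WT library. Chil3, a chitinase-like protein of macrophages and granulocytes, had 30.7, 27.3 and 32.2 CPM in the KO libraries, against 7.90, 7.75 and 5.64 CPM in the WT libraries (2.09 ± 0.20). F13a1, the coagulation factor XIII gene of monocytes and macrophages, had 20.1, 17.8 and 10.4 CPM in the KO libraries, against 1.28, 0.337 and 0.742 CPM in the WT libraries (4.38 ± 0.41). Fn1, the fibronectin gene, was the member that fell, with 2.77, 2.86 and 3.93 CPM in the KO libraries, against 14.3, 14.3 and 8.75 CPM in the WT libraries (-1.95 ± 0.29). Il18bp, which binds and blocks interleukin-18, and Fgl2, a fibrinogen-like protein, were outside the lists and among the 15 largest increases, Il18bp with 25.6, 27.1 and 24.5 CPM in the KO libraries, against 5.34, 5.90 and 6.97 CPM in the WT libraries and Fgl2 with 57.1, 45.6 and 87.5 CPM in the KO libraries, against 12.4, 12.1 and 11.0 CPM in the WT libraries (2.07 ± 0.18 and 2.42 ± 0.20).

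Trem2 is known for the lipid-associated state that macrophages and microglia take up around lipid and cell debris. Of 30 genes listed for that state, 28 were tested, 15 were higher and 7 lower, with a median of 0.24 on the log2 scale. Lpl, lipoprotein lipase, had 1865, 1954 and 2052 CPM in the KO libraries, against 7069.8, 6253 and 7411 CPM in the WT libraries. The KO libraries were all far lower (-1.82 ± 0.14, adjusted p = 7.7e-10). The fatty acid binding protein Fabp5 had 1634, 1708 and 1299 CPM in the KO libraries, against 670.4, 621 and 632 CPM in the WT libraries, and Fabp4 had 198, 196 and 142 CPM in the KO libraries, against 85.2, 74.5 and 80.0 CPM in the WT libraries. Both were higher (1.27 ± 0.088 and 1.17 ± 0.10), as were Lgals3 (0.77 ± 0.086), the galectin-3 gene, and the lipid droplet coat Plin2 (0.62 ± 0.12). Gpnmb, a membrane glycoprotein of lipid-laden macrophages, had 5528, 6187 and 5352 CPM in the KO libraries, against 5044, 4536 and 4921 CPM in the WT libraries. Its log2 fold change of 0.24 ± 0.082 was called (adjusted p = 0.033), and the call was lost without KO replicate 2 and without WT replicate 2. The next pair of members was looked at after their values were seen: Apoe, a lipoprotein ligand of Trem2, had 3507, 4599 and 3664 CPM in the KO libraries, against 2463, 2488 and 2510.3 CPM in the WT libraries (0.66 ± 0.14), and Spp1, the osteopontin gene, had 1289, 1528 and 1285 CPM in the KO libraries, against 1200.4, 1042 and 1209 CPM in the WT libraries (0.25 ± 0.087), a call lost without KO replicate 2 or without WT replicate 2. The rest of the handling of lipids was mixed as well, with 7 higher and 5 lower of 19 genes of uptake, droplets and lipolysis, the lower count being 3 without KO replicate 1 or 2 or without WT replicate 1 or 2. Of 15 eicosanoid genes 6 were lower and 1 higher, and 1 of the 15 had under 10 counts in each WT library. The 7 more abundant members were 4 lower and 0 higher. Alox5ap, which hands arachidonic acid to 5-lipoxygenase, had 439, 393 and 439.8 CPM in the KO libraries, against 682, 657 and 639 CPM in the WT libraries (-0.64 ± 0.072), and thromboxane synthase Tbxas1 had -0.82 ± 0.11.

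Of 34 lineage transcription factors, 12 were higher and 6 lower, the lower count being 3 without KO replicate 2. Maf, a factor of macrophage identity, had 744, 596 and 749 CPM in the KO libraries, against 446, 436 and 389 CPM in the WT libraries. It was higher in every KO library (0.72 ± 0.11). Bhlhe41, a helix-loop-helix repressor, had 279.7, 340.1 and 263 CPM in the KO libraries, against 109, 107 and 114 CPM in the WT libraries, a log2 fold change of 1.42 ± 0.091, and the helix-loop-helix inhibitors Id1 and Id2 had -1.72 ± 0.18 and 0.74 ± 0.073. The pioneer factor Spi1, or PU.1, had 189, 172 and 177 CPM in the KO libraries, against 189, 197 and 199.98 CPM in the WT libraries, and was not called (-0.13 ± 0.073, adjusted p = 0.21). In the complement system 8 genes were higher and 5 lower of 15. However, 2 of the 15 had under 10 counts in each WT library. Of the 11 more abundant members 5 were higher and 5 lower (median -0.22). C1qa, a chain of C1q, had 513, 467 and 559.7 CPM in the KO libraries, against 294, 317 and 246 CPM in the WT libraries (0.85 ± 0.087), C1qc had 0.63 ± 0.087 and C3 had 1.38 ± 0.21. The receptor C5ar1 fell (-0.59 ± 0.11), and so did the lysis inhibitor Cd59a (-1.41 ± 0.18).

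Proteases and matrix genes were more often lower than higher. Of 21 matrix proteases and inhibitors 10 were lower and 5 higher. Of the 21, 1 had under 10 counts in each WT library. The 15 more abundant members were 9 lower and 2 higher. Mmp12, the macrophage elastase, had 319, 226 and 279 CPM in the KO libraries, against 1037, 783 and 938 CPM in the WT libraries. Plau, the urokinase gene, had 48.3, 53.3 and 42.4 CPM in the KO libraries, against 204, 186 and 156 CPM in the WT libraries. Both fell in every KO library (-1.75 ± 0.12 and -1.92 ± 0.11). Mmp14, a membrane-bound collagenase, had 63.3, 70.0 and 35.4 CPM in the KO libraries, against 16.2, 12.97 and 18.5 CPM in the WT libraries and was higher (1.82 ± 0.22). Of 30 genes of matrix, adhesion and podosomes, 14 were lower and 3 higher. S100a4, a calcium-binding protein of motile cells, had 419.5, 344 and 405 CPM in the KO libraries, against 1259.7, 1192 and 1244 CPM in the WT libraries. Myo1e, a podosome myosin, had 82.5, 94.1 and 95.6 CPM in the KO libraries, against 219, 224 and 254 CPM in the WT libraries, and the actin crosslinker Flna had 165, 171 and 161 CPM in the KO libraries, against 278, 307 and 298 CPM in the WT libraries. The groups did not overlap for any of these (-1.66 ± 0.10, -1.36 ± 0.10 and -0.83 ± 0.071), and the intermediate filament gene Vim was not called (0.11 ± 0.074, adjusted p = 0.27). Thbs1, which encodes a matrix glycoprotein, rose (1.45 ± 0.24). Outside the lists, the largest decrease among the named genes was Fgf13, an intracellular FGF homologue, with 1.85, 0.382 and 0.694 CPM in the KO libraries, against 39.9, 33.0 and 31.0 CPM in the WT libraries (-5.17 ± 0.34, or -5.96 without KO replicate 1), and Efr3b, which anchors a PI4 kinase at the plasma membrane, and the pentraxin Nptx1 were in the same group of 15 (-4.00 ± 0.19 and -3.55 ± 0.20). With so few tags in the KO libraries, Fgf13 was tested only because other libraries carried it, and the size of its decrease is uncertain. Pdpn, the podoplanin gene, the deiodinase Dio2 and the receptor Gprc5b were among the 15 largest increases (2.31 ± 0.19, 2.27 ± 0.19 and 2.26 ± 0.18).

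In metabolism the clearest shift was in glycolysis, where 12 of 20 genes were lower and 3 higher (median -0.39). Ldha, lactate dehydrogenase A, had 604, 579 and 568 CPM in the KO libraries, against 1024, 925 and 808 CPM in the WT libraries. Gapdh, often used as a reference gene, had 355, 285 and 284 CPM in the KO libraries, against 598, 533 and 444 CPM in the WT libraries. Both were lower in each KO library (-0.65 ± 0.084 and -0.77 ± 0.11), as was the isomerase Gpi1 (-0.89 ± 0.094). Pfkfb3, which makes the activator of phosphofructokinase, was higher, with 53.4, 58.0 and 59.5 CPM in the KO libraries, against 26.7, 35.0 and 36.6 CPM in the WT libraries (0.78 ± 0.12), and hexokinase Hk2 had 0.38 ± 0.10. Respiratory chain genes of the nucleus stayed nearer to 0: of 37 complex I subunits 2 were higher and 4 lower (median -0.063), and of 35 subunits of complexes III to V 1 was higher and 7 lower (median -0.074). Of the complex I subunits, 1 or 2 were lower without KO replicate 1, KO replicate 3, WT replicate 1 or WT replicate 2, and 1 was higher without KO replicate 2. Of the 13 proteins encoded in the mitochondrion, 1 was higher and 4 lower, mt-Nd4 with 1599, 1451 and 1462 CPM in the KO libraries, against 1916, 1859 and 1993 CPM in the WT libraries (-0.35 ± 0.072) and mt-Co1 with 1511, 1268 and 1299.7 CPM in the KO libraries, against 1044, 1069.7 and 1083 CPM in the WT libraries (0.35 ± 0.074). Amino acid transporters were higher in 7 and lower in 4 of 17; Slc3a2, the heavy chain of several of them, had 607, 619 and 551 CPM in the KO libraries, against 344, 357 and 334 CPM in the WT libraries (0.78 ± 0.071), and the glutamine carrier Slc1a5 fell (-1.15 ± 0.16).

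Redox and iron genes moved singly. NRF2 targets and redox enzymes were higher in 4 and lower in 4 of 24. Gpx1, glutathione peroxidase 1, had 627, 575 and 639.5 CPM in the KO libraries, against 1383, 1279.9 and 1138 CPM in the WT libraries, and Sod1 had 298, 296 and 368 CPM in the KO libraries, against 578, 544 and 559.9 CPM in the WT libraries. The KO values of both were lower (-1.05 ± 0.093 and -0.81 ± 0.080), while the microsomal transferase Mgst1 was higher (0.96 ± 0.089). In iron handling 7 were higher and 3 lower of 19. Slc40a1, the iron exporter ferroportin, had 147, 128 and 98.1 CPM in the KO libraries, against 44.8, 42.8 and 36.2 CPM in the WT libraries, and Fth1, the ferritin heavy chain, had 14213, 11902 and 11290.4 CPM in the KO libraries, against 9414, 8377 and 7293 CPM in the WT libraries. These rose in each KO library (1.597 ± 0.16 and 0.58 ± 0.10), and Ncoa4, which carries ferritin to the lysosome, had 0.64 ± 0.067. Metallothioneins and zinc transporters were higher in 3 and lower in 4 of 13, or lower in 2 without KO replicate 1, KO replicate 3 or WT replicate 2 and higher in 5 without WT replicate 1, with Mt1 and Mt2 higher (0.48 ± 0.077 and 0.94 ± 0.10). Heat shock genes were higher in 1 and lower in 6 of 21, or lower in 3 without KO replicate 3. Dnajb4 had 44.8, 41.8 and 43.3 CPM in the KO libraries, against 138, 116 and 117 CPM in the WT libraries (-1.51 ± 0.10) and the co-chaperone Bag3 -0.91 ± 0.081, whereas Hsp90aa1 was not called (0.048 ± 0.073, adjusted p = 0.67). Regulators of NF-kB and apoptosis were higher in 10 and lower in 4 of 26. Mcl1, a survival factor of the BCL-2 family, had 702, 764 and 642 CPM in the KO libraries, against 487, 495 and 501 CPM in the WT libraries (0.51 ± 0.077), Gadd45b had 1.11 ± 0.14, and Bcl2 was lower (-0.997 ± 0.18).

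Markers of other myeloid cells moved with several of the groups above. The 9 granulocyte markers that were tested were all higher in the KO libraries, S100a8 with 235, 184 and 308 CPM in the KO libraries, against 91.2, 83.4 and 90.8 CPM in the WT libraries and S100a9 with 167, 127 and 235 CPM in the KO libraries, against 42.5, 44.8 and 47.5 CPM in the WT libraries (1.45 ± 0.15 and 1.96 ± 0.18), Ngp with 51.3, 40.8 and 70.8 CPM in the KO libraries, against 14.9, 11.5 and 17.7 CPM in the WT libraries and Ltf with 15.7, 12.98 and 19.2 CPM in the KO libraries, against 4.48, 2.36 and 3.71 CPM in the WT libraries. Elane and Mpo, which define granulocyte precursors, had at most 9 counts in any DMSO library, and Ly6g had 2 to 6.61 counts in the KO libraries and 0 in the WT libraries. Chil3, Lcn2 (2.29 ± 0.27), Mmp8 (0.76 ± 0.18) and Csf3r (0.85 ± 0.28) belong both to these markers and to groups described above, and the part of granulocytes in those values was not tested. The call of Csf3r was lost without KO replicate 2, KO replicate 3 or WT replicate 1. The 11 monocyte markers summed to 165, 217 and 274 CPM in the KO libraries, against 485, 486 and 496 CPM in the WT libraries, an order set by Cx3cr1. Of the 7 tested, 4 were higher and 1 lower. However, 1 of the 7 had under 10 counts in each WT library, and of the 2 more abundant members 0 were higher and 1 lower. Other monocyte markers went the other way, with 8.09, 9.16 and 9.95 CPM in the KO libraries, against 1.49, 2.19 and 0.890 CPM in the WT libraries of Plac8. Ms4a4c had 7.39, 10.1 and 14.6 CPM in the KO libraries, against 0.641, 1.35 and 1.78 CPM in the WT libraries. The dendritic cell markers summed to 34.6, 36.6 and 46.4 CPM in the KO libraries, against 84.9, 102 and 109 CPM in the WT libraries, with Itgax the gene that set the order. Of the 4 tested, 3 were higher, Cd24a among them (1.37 ± 0.24), and 1 lower. However, 2 of the 4 had under 10 counts in each WT library, and the 2 more abundant members were 1 higher and 1 lower. The osteoclast markers summed to 382, 406 and 415 CPM in the KO libraries and to 365, 381 and 387 CPM in the WT libraries, and 2 were higher and 2 lower of 9 tested. Of the 9, 1 had under 10 counts in each KO library, and the 4 more abundant members were 2 higher and 1 lower. The fusion receptor Dcstamp had 5.78, 2.86 and 2.55 CPM in the KO libraries, against 39.5, 34.0 and 25.1 CPM in the WT libraries (-3.14 ± 0.27). Itgb3 and the proton pump subunit Atp6v0d2 were the higher members (1.16 ± 0.21 and 0.29 ± 0.082), and Ctsk and Acp5 were not called (-0.42 ± 0.25 and -0.59 ± 0.31).

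**Figure D4:**
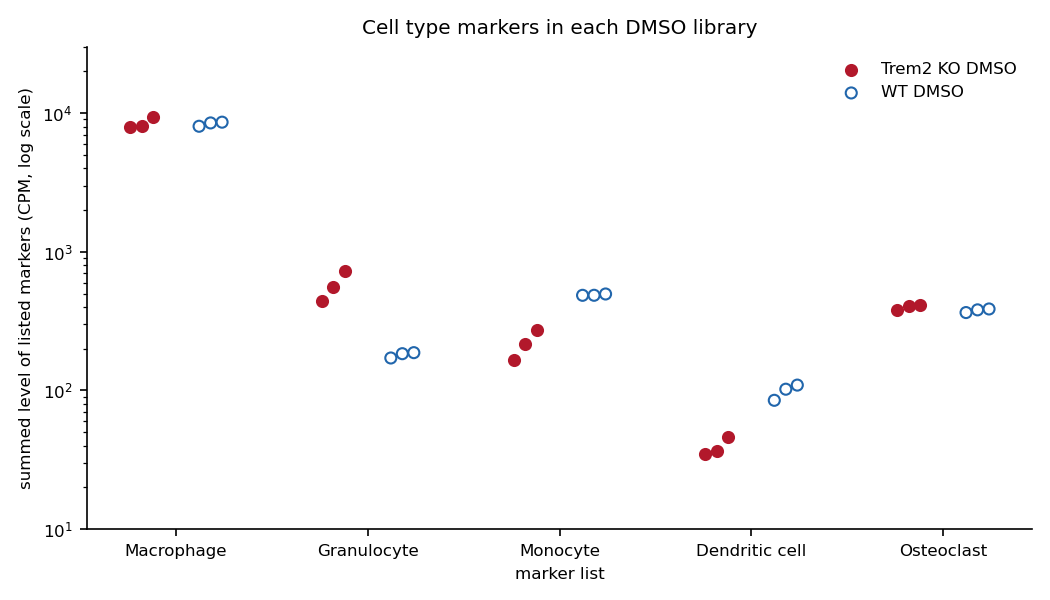
Summed level of the listed markers of 5 cell types in each Trem2 KO DMSO library (left, filled) and each WT DMSO library (right, open), in CPM on a log scale, tested or not. Points run from the lowest to the highest library. Macrophage markers overlap between the genotypes, granulocyte markers higher in the KO libraries, and monocyte and dendritic cell markers lower.

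The same genotypes were also compared in the bafilomycin A1 libraries, which share no library with the DMSO comparison. Replicate numbers name pools of marrow within a genotype, so the same pools can stand behind both comparisons. The comparisons are then not independent at the level of pools, and the test of the difference did not pair libraries by pool. Bafilomycin A1 blocks the proton pump of lysosomes. Under bafilomycin A1, 1507 genes (12.5%) were higher and 1716 (14.2%) lower in the KO libraries. The genotype difference under bafilomycin A1 minus that under DMSO was called for 1062 genes (8.81%), 588 with a positive and 474 with a negative value. Without WT DMSO replicate 2 that count was 665, and without KO DMSO replicate 2 it was 695. The mitotic kinases and cyclins were lower in 12 of 22 cases under bafilomycin A1, with a median log2 fold change of -0.75 against -2.48 in DMSO, and 8 of them were called in the test of the difference. For Ccna2 the genotype log2 fold change was -2.19 ± 0.41 under bafilomycin A1 and -4.83 ± 0.31 in DMSO (difference 2.65 ± 0.66, adjusted p = 0.014). In the bafilomycin A1 libraries it stood at 0.701, 1.80 and 0.695 CPM in KO cells, against 7.05, 3.91 and 3.48 CPM in WT cells, so the WT level was closer to that of the KO cells there than in DMSO. Mki67 and Uhrf1 had differences of 2.45 ± 0.38 and 2.19 ± 0.47. Spc25 had a log2 fold change of 0.15 ± 0.17 under bafilomycin A1, where it was not called, and the difference from its value in DMSO was 2.31 ± 0.23 (adjusted p = 1.7e-06).

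Of the ERK target genes 12 of 17 were lower and 1 higher under bafilomycin A1, with a median of -1.02 against -0.99 in DMSO, and 3 were called in the test of the difference (Dusp6 -0.85 ± 0.25, Ier3 -0.87 ± 0.18 and Spred1 0.49 ± 0.12). The type I interferon genes were higher in 22 cases and lower in 0 under bafilomycin A1 (median 0.65 against 0.82 in DMSO), with 1 called in the test of the difference. Csf1 was among the genes that did differ, at -0.12 ± 0.24 under bafilomycin A1 (difference -2.45 ± 0.37, adjusted p = 2.5e-04), and Ccl5 was another (-0.0088 ± 0.16, difference -2.14 ± 0.25, adjusted p = 1.2e-05). Cdkn1c changed sign. Its genotype log2 fold change was -0.36 ± 0.089 under bafilomycin A1 (adjusted p = 0.0042), and the difference was -2.38 ± 0.15 (adjusted p = 2.9e-09). Itgb3 and Mt2 changed sign as well, at -0.67 ± 0.11 and -0.57 ± 0.11 under bafilomycin A1 (differences -1.83 ± 0.24 and -1.51 ± 0.14). The class II genes H2-Aa, H2-Ab1 and H2-Eb1 had differences of -1.16 ± 0.21, -0.98 ± 0.24 and -1.44 ± 0.20. Trem2 (difference 0.14 ± 0.11, adjusted p = 0.49), Itgax (0.50 ± 0.30, 0.33) and Lpl (-0.38 ± 0.19, 0.23) were not called in that test.

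**Figure D5:**
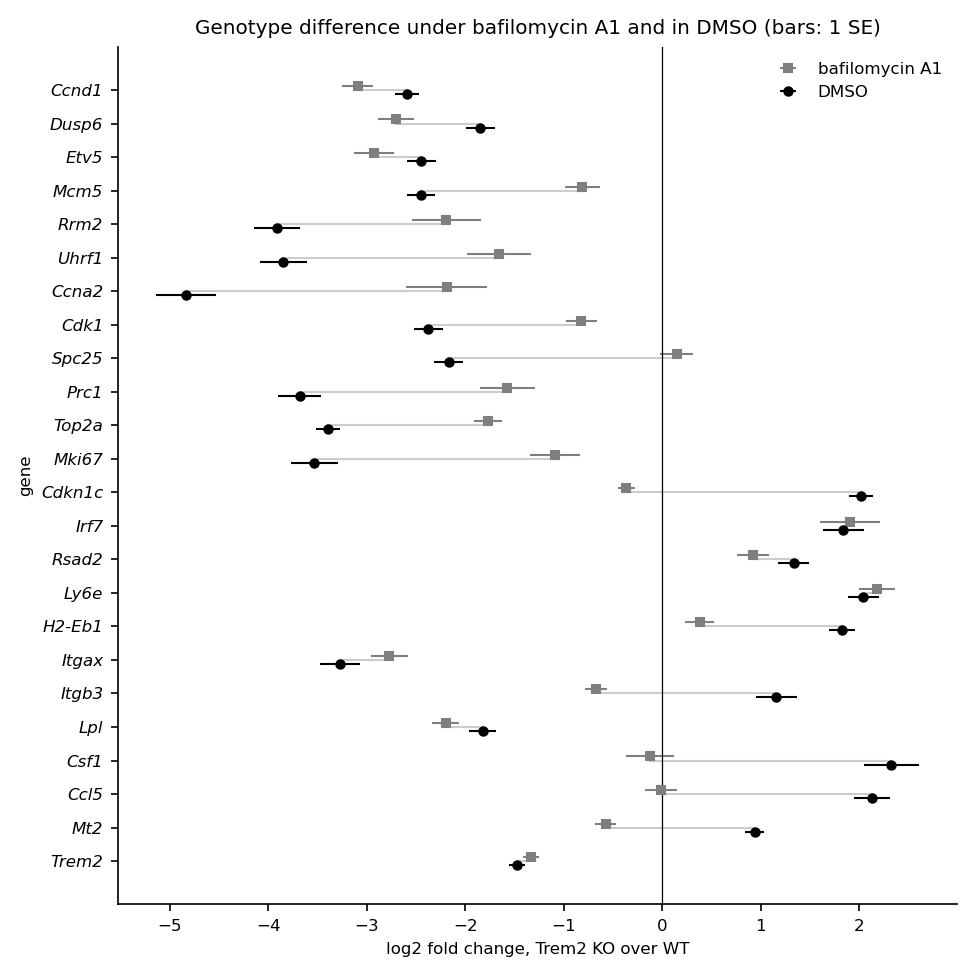
Genotype log2 fold change (KO over WT) of 24 named genes (vertical axis) under bafilomycin A1 (squares) and in DMSO (circles), with bars of 1 SE. The replication and mitosis genes from Mcm5 down to Mki67 lie nearer to 0 under bafilomycin A1, and Cdkn1c, Itgb3 and Mt2 lie on opposite sides of 0 by more than 1 SE.

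Genes beside Trem2 were called no more often than others. Of the 14 tested genes whose RefSeq position lies within 1 Mb of Trem2, 3 were called (21.4%), against 30.3% of all genes, and of the 61 within 5 Mb 15 were called (24.6%). The called neighbours were Ccnd3 (-0.96 ± 0.13), Oard1 (0.63 ± 0.20) and B430306N03Rik (-0.41 ± 0.13). Oard1 lost its call without KO replicate 3, WT replicate 1 or WT replicate 2, and B430306N03Rik without KO replicate 2, WT replicate 1 or WT replicate 3. By chromosome, between 28.4% and 34.9% of the tested genes were called.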

How the data were processed

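RNA of bone-marrow-derived macrophages was read in 12 libraries, 3 in each of 4 groups. Estimated counts per gene were deposited by the authors, made with Salmon on GRCm39 per the submitters' processing notes, with versions not given in the sources used here. Of the values above 0, 42.0% were not whole, so counts were rounded before the tests. The deposited log2 CPM values match these counts with a prior count of 2 to within 4.5e-04 and were used for that check only.

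Genes were kept by edgeR's filterByExpr (minimum count 10, minimum total 15), which left 12052 of 56980. Library sizes were scaled by TMM, and all 12 libraries entered 1 quasi-likelihood fit with a term per group (edgeR 4.0.16, R 4.3.3). P-values were adjusted by Benjamini-Hochberg over all genes tested. The shared spread gave a common coefficient of variation of 0.0795. Alternatives used DESeq2 1.42.0, limma-voom (limma 3.58.1), other scalings and filters, a 2-fold limit, a replicate term and each DMSO library left out in turn.

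Named genes were the 15 largest changes in each direction (at least 20 CPM in the higher group, no overlap, predicted genes left out), the strongest and most abundant members of 71 lists, the genes within 1 Mb of Trem2 and the largest interactions. From those the text takes a part, and genes outside the rule are marked. Some results are not reported here. The members, lists and rules were chosen with earlier results of these data known. Promoter windows and gene positions came from RefSeq tables (GRCm38.p6), in which 11350 of 12052 tested symbols were found. Exactly 1 window was listed for 6970 tested genes, and genes with more than 1 were left out of the promoter shares.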

Additional observations from a re-analysis of the deposited data

Results flagged for a closer look

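The genotype difference under bafilomycin A1 was not the same as that in DMSO for 97 of the genes named above, by edgeR's test of the difference itself (bafilomycin A1 minus DMSO, log2 scale, adjusted p below 0.05 over all genes, 3 libraries in each of the 4 groups). The value was positive for 50 of them and negative for 47. For genes lower in the KO libraries in DMSO a positive value is a smaller decrease, none or a change of sign under bafilomycin A1, and for genes higher in DMSO a negative value is a smaller increase, none or a change of sign. A value with the sign of the DMSO difference is a larger difference under bafilomycin A1, as for Dusp6, C1qa and C1qc. Tyrobp, Cd14 and Vim were not called in DMSO.

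Among replication and S phase genes the difference was 2.19 for Uhrf1, 1.96 for Tyms, 1.73 for Mcm7, 1.72 for Rrm2, 1.64 for Mcm5, 1.47 for Pclaf, 1.45 for Ezh2, 1.44 for Lig1, 1.28 for Tipin, 1.23 for Dut, 1.03 for Mcm4, 1.01 for Mcm6, 0.88 for Pola1, 0.78 for H2az1 and 0.77 for Pcna.

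Among mitosis genes it was 2.65 for Ccna2, 2.64 for Cenpf, 2.45 for Mki67, 2.31 for Spc25, 2.11 for Prc1, 2.02 for Ccnb1, 2.02 for Stmn1, 1.98 for Nusap1, 1.62 for Top2a, 1.59 for Cenpe, 1.56 for Cdk1 and 1.496 for Birc5.

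Among genes of G1, ERK and growth signalling it was 2.14 for Ccne2, 2.02 for Ccne1, 1.45 for Cdkn2c, 0.98 for Dkc1, 0.95 for Rasgrp3, 0.66 for Ccng2, 0.49 for Spred1, 0.45 for Tyrobp, 0.41 for Rps23 and 0.40 for Npm1. Negative differences in the same group were -2.45 for Csf1, -2.38 for Cdkn1c, -1.496 for Irs2, -0.87 for Ier3, -0.85 for Dusp6, -0.85 for Csf2rb, -0.82 for Csf2rb2 and -0.56 for Syk.

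Among antigen presentation, interferon and complement genes it was 0.54 for C1qa and 0.48 for C1qc. Negative differences in the same group were -1.44 for H2-Eb1, -1.23 for H2-Q7, -1.16 for H2-Aa, -1.15 for C3, -0.98 for H2-Ab1, -0.55 for Ifi203, -0.41 for H2-K1 and -0.35 for H2-D1.

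Among receptors and adhesion genes it was 2.36 for Fn1, 0.94 for Cx3cr1, 0.64 for Clec7a, 0.44 for S100a4 and 0.43 for Flna. Negative differences in the same group were -1.98 for Gprc5b, -1.87 for Pdpn, -1.83 for Itgb3, -1.44 for Cd274, -1.25 for Mmp14, -0.73 for Fcgr2b, -0.69 for Atp6v0d2, -0.60 for Cd14, -0.37 for Vim and -0.35 for Clec4d.

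Among chemokines and cytokines it was 0.98 for Cxcl14, 0.59 for Pdgfb and 0.57 for Igf1. Negative differences in the same group were -2.14 for Ccl5, -1.62 for Ccl3, -1.46 for Gdf15, -1.45 for Il1rn, -1.03 for Osm and -0.82 for S100a8.

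Among genes of lipids, metabolism, metals and stress it was 1.36 for Dnajb4, 0.60 for Gpx1 and 0.44 for Alox5ap. Negative differences in the same group were -2.62 for Dio2, -1.51 for Mt2, -1.19 for Bhlhe41, -0.93 for Pfkfb3, -0.84 for Fabp5, -0.79 for Fabp4, -0.65 for Id2, -0.60 for Mt1, -0.57 for Slc3a2, -0.57 for Hk2, -0.48 for Lgals3, -0.47 for Spp1, -0.45 for mt-Co1, -0.42 for Ncoa4 and -0.39 for Gpnmb.

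The call was lost when at least 1 DMSO library was left out for 24 of these genes, namely C1qa, C1qc, Ccnb1, Ccng2, Cd14, Cenpe, Clec4d, Cx3cr1, Dusp6, Fcgr2b, Gpnmb, H2-D1, Ifi203, Npm1, Osm, Rasgrp3, Rps23, Rrm2, S100a4, S100a8, Spp1, Spred1, Tyrobp and Vim.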

How the results depend on the processing

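Under 9 other settings for the DMSO comparison the count of called genes was 3148 to 3672, against 3649 as reported, and with a 2-fold limit in the test it was 352, 94 of them higher and 258 lower. Leaving out 1 DMSO library at a time gave 3015 to 3392. The count of genes whose genotype difference depended on the drug was 1062 as reported, 11 with the 2-fold limit and 922 to 1103 under 8 other settings. Leaving out 1 DMSO library gave 665 to 1100 for it, the lowest without WT DMSO replicate 2 and the next lowest, 695, without KO DMSO replicate 2. With library size alone as the scaling the median of all genes moved to -0.046 on the log2 scale.

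Of the 224 genes given with values, 203 were called. None changed direction while called, 112 lost the call under the 2-fold limit, and 12 lost it under another setting (B430306N03Rik, Bcl6, Cdkn1a, Csf1r, Csf3r, Gpnmb, Il1b, Klf2, Oard1, Pold3, Rad21 and Spp1), all 12 when some library was left out. The cause was not tested.

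The labels do not say that KO and WT pools of the same replicate number share a batch, day or litter. Same-numbered KO and WT libraries deviated from their group means with correlations of 0.15, -0.074 and -0.11, so the numbers were not read as pairs. The fit with the replicate block called 3640 genes in DMSO and 1031 for the dependence on the drug. Its terms were shared by KO and WT libraries of the same number, so it did not pair the treatments within each genotype separately.

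Libraries of 4407470 to 6457650 counts limit the genes of few tags. A gene at 1 CPM rests on about 5 counts. The T and NK cell, fibroblast and mast cell marker lists have no tested member under the stricter filter, nor the mast cell list in the 6 DMSO libraries alone.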
